A study of Mus musculus with 8 samples.

Results

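Guanylate-binding proteins and immunity-related GTPases are enzymes that cells make when interferons signal infection, and 10 of their genes were followed here through intestinal RNA of wild-type C57BL/6 mice. The 10 genes are 7 guanylate-binding protein genes (Gbp2, Gbp3, Gbp4, Gbp5, Gbp6, Gbp7 and Gbp9) and 3 immunity-related GTPase genes (Igtp, Irgm1 and Iigp1), found by name among the 23282 lines of the count table. They were selected on their family and on their normalised CPM (counts scaled to equal library totals) in these same libraries, so their levels are given as a description and carry no test. The 8 libraries form 4 groups of 2. The group labelled NC received phosphate-buffered saline in place of vesicles and no dextran sodium sulfate (DSS), a polysaccharide that injures the gut lining and is used to induce colitis. The group labelled PC received saline and then 3% DSS in its drinking water for 6 days. The group labelled Ex received a daily gavage of 1 mg of exosomes (small membrane vesicles) from bovine colostrum for 3 weeks and no DSS, and the group labelled ExDSS received the exosomes and then DSS. Age, sex and gut region are not given in the sources used here, nor whether a group's pair of libraries came from different animals, so the spread between them may be technical.

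Interferon-gamma, secreted by T and NK cells, binds a receptor whose kinases act, through elements in DNA called GAS, to switch on target genes. Among these is the gene of the transcription factor IRF1, which together with other IRF proteins binds elements called ISRE in the promoters of the GTPase genes. Guanylate-binding proteins then gather on bacteria and on the vacuoles that hold intracellular parasites, and they help to open them and to expose bacterial lipopolysaccharide to inflammasomes. Immunity-related GTPases act on the same vacuoles: the regulatory members Irgm1, Irgm2 and Igtp (also called Irgm3) sit on the cell's own membranes, and effector members such as Iigp1 (Irga6) and the Tgtp proteins (Irgb6) attack foreign ones. In the gut, the human relative IRGM is known as a susceptibility gene of Crohn's disease.

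The 7 guanylate-binding protein genes lie in a pair of genomic clusters. In the table's coordinates, which overlap the GRCm38 gene of the same name for all 10 members, Gbp5, Gbp7, Gbp3 and Gbp2 stand in this order on the plus strand of chromosome 3, from 142496934 (start of Gbp5) to 142638008 (end of Gbp2). Gbp9, Gbp4 and Gbp6 lie on the minus strand of chromosome 5, from 105078394 to 105293699. Irgm1 (48865249 to 48871346, minus strand) and Igtp (58199556 to 58207592, plus strand) lie apart on chromosome 11, and Iigp1 lies on a chromosome with no other member. No member overlaps another line of the table.

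Promoter windows, from 250 bases before to 50 bases after the transcript start, were at hand from RefSeq (GRCm38.p6) for 6 of the 10 members, and they are shown because they hold the interferon elements that the members have in common. Gbp4, Gbp6, Gbp9 and Iigp1 had no entry. Capitals mark GAS letters, TTCNNNGAA, and ISRE letters, which are GAAA, any 2 bases and GAAA again, or on the opposite strand TTTC, any 2 bases and TTTC; both strands were searched. Windows of 60 bases follow for the chromosome 3 members Gbp2 (chr3:142620579-142620638, plus strand) and Gbp3 (chr3:142559977-142560036, plus strand) and for Irgm1 (chr11:48871413-48871472, minus strand), which hold ISRE letters and no GAS letters.
Gbp2: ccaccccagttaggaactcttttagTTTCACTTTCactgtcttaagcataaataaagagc
Gbp3: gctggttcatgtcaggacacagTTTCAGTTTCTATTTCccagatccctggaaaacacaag
Irgm1: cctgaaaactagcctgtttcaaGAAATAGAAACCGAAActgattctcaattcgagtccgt
In Gbp3 and Irgm1 the capitals are 2 ISRE matches that overlap, 6 bases apart, an arrangement found in 38 of 32851 promoter windows (0.116%). Gbp3 has a second RefSeq start whose window holds neither element.

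The next windows are those of Igtp (chr11:58199491-58199550, plus strand) and of 3 relatives outside the 10 members, Irgm2 (chr11:58214882-58214941, plus strand), Tgtp1 (chr11:48992295-48992354, minus strand) and Tgtp2 (chr11:49064254-49064313, minus strand), which share one layout.
Igtp: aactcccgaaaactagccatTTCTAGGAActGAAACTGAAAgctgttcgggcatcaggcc
Irgm2: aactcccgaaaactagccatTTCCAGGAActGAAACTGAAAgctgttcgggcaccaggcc
Tgtp1: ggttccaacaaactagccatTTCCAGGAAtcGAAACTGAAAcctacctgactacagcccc
Tgtp2: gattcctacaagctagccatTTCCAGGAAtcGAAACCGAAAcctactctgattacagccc
In each, GAS letters are followed after 2 bases by ISRE letters. This exact spacing occurred in 5 of 32851 windows (0.0152%), those of these 4 genes and of Gm12185.

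Gbp5 (chr3:142496684-142496983) and Gbp7 (chr3:142530086-142530385), neighbours on the plus strand of chromosome 3, are printed whole because both hold both elements while their levels followed different patterns across the libraries.
Gbp5: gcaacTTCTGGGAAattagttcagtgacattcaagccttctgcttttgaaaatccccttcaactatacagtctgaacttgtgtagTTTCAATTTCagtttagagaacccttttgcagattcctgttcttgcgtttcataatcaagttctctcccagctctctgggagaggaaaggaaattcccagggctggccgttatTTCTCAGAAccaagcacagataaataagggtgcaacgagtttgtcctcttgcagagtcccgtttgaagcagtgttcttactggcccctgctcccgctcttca
Gbp7: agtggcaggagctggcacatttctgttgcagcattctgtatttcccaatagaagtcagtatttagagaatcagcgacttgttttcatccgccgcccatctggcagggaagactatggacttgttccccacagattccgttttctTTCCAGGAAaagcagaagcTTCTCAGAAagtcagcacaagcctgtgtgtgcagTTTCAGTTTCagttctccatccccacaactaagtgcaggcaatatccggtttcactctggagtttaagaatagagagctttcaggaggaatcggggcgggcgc
In Gbp5 the GAS matches begin 245 and 52 bases before the start and the ISRE match 165 bases before it. In Gbp7 the GAS matches begin 106 and 87 bases before the start, and the ISRE match 53 bases before it.

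By gene, ISRE letters were present for all 6 members with an entry and GAS letters for 3 of them (Gbp5, Gbp7 and Igtp), against 1079 and 2582 of 27025 genes. Over all 32851 windows of equal length, the shares with ISRE and GAS letters were 3.44% and 8.30%. Of 9 windows of related GTPase genes outside the 10, 6 held ISRE letters and 4 held GAS letters. Ifi47, a further immunity-related GTPase gene, had neither. For Irf1, 1 of 2 windows held GAS letters. The window of Socs1, a feedback inhibitor of the pathway, held 2 overlapping ISRE matches, and that of Cxcl9 held neither. These are matches of letters, and no binding was measured.

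**Figure D1:**
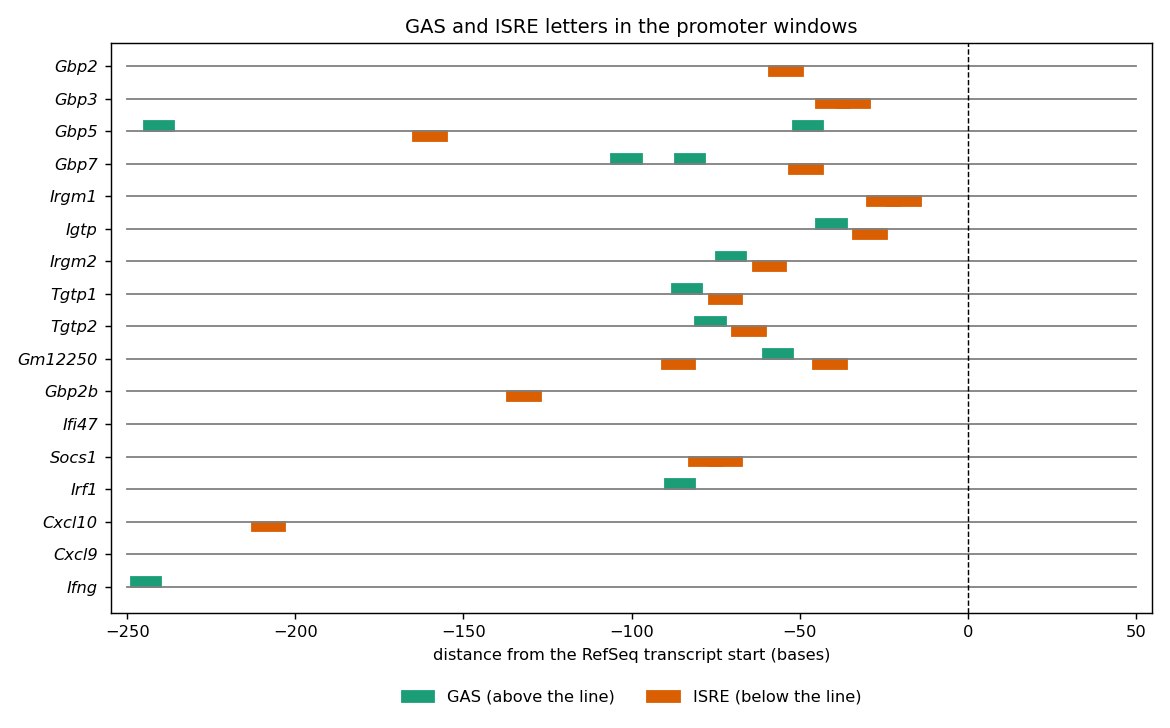
Positions of GAS letters (green, above each line) and ISRE letters (orange, below) in the 300-base RefSeq promoter windows of 6 members, related GTPase genes and interferon-pathway genes, with distance in bases from the transcript start on the horizontal axis. The window of the first listed start of each gene is drawn. ISRE letters appear in it for all 6 members (Gbp2, Gbp3, Gbp5, Gbp7, Irgm1 and Igtp), and Igtp, Irgm2, Tgtp1 and Tgtp2 show the same GAS and ISRE pair.

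The libraries differed in ways that touch every value below. Total counts ranged from 8813622 to 12308537 in 7 libraries and were 1163147 in Ex 2, where Rn45s, a ribosomal RNA precursor, held 53.5% of counts. A count of 0 allows up to 4.47 CPM in Ex 2 and up to between 0.199 and 0.411 CPM elsewhere (3 counts, counting error only). The summed level of 8 epithelial markers was between 3907 and 6908 CPM in 7 libraries and 59.6 CPM in Ex 2, which thus carried little of the labelled tissue's epithelial RNA. In PC 1, PC 2, NC 1 and Ex 1 between 16123 and 16790 genes had a count, while NC 2 had 12683, ExDSS 1 had 9825 and ExDSS 2 had 11874. Pancreatic acinar markers made up 7.32% of NC 2 and 16.8% of ExDSS 1, and at most 0.0055% of any other library. Neutrophil markers summed to 2165 to 2351 CPM in the libraries labelled NC and 1891 to 2947 CPM in ExDSS, against 8.47 to 8.94 CPM in those labelled PC, which goes against what DSS treatment is known for. Groups are therefore named as labelled throughout, and any direction assigned to DSS rests on those labels.

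Gbp2 coats the vacuole of the parasite Toxoplasma. It was at 336 and 54.1 CPM in NC 1 and NC 2, 19.0 and 17.6 CPM in PC 1 and PC 2, 32.4 and 0 CPM in Ex 1 and Ex 2, and 87.2 and 80.5 CPM in ExDSS 1 and ExDSS 2. All 4 NC and ExDSS libraries lay above all 4 PC and Ex libraries. The group means were 195 ± 199 CPM in NC (SD, n = 2), 18.3 ± 0.991 CPM in PC and 83.9 ± 4.76 CPM in ExDSS, ratios of 10.7 and 4.59 to PC, and the spread within NC exceeded its mean.

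Gbp3, its neighbour, was at 93.2 and 35.7 CPM in the NC pair, 8.14 and 9.02 CPM in PC, 10.01 and 0 CPM in Ex, and 124 and 42.7 CPM in ExDSS. The PC libraries differed by less than 1 CPM, and both NC and both ExDSS libraries were at least 4-fold above the PC mean (lowest ratios 4.16 and 4.98).

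Gbp5 promotes assembly of inflammasomes. Its levels were 145 and 73.6 CPM in the NC pair, 2.98 and 3.06 CPM in PC, 2.55 and 0 CPM in Ex, and 152 and 75.2 CPM in ExDSS. Its ratio to PC was the highest of the 10 members in both groups, 36.1 for the NC mean (109 ± 50.2 against 3.02 ± 0.0559 CPM, SD, n = 2) and 37.7 for the ExDSS mean (114 ± 54.5 CPM). The NC and ExDSS ranges overlapped for this gene. Its transcript end is nearly its own: 1.62% of the 50-base windows in the last 500 bases occurred in transcripts of another gene.

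Gbp7, known from work on vacuolar bacteria and the phagocyte oxidase, did not follow Gbp5. It was at 135 and 19.5 CPM in the NC pair, 32.9 and 29.4 CPM in PC, 28.8 and 4.47 CPM in Ex, and 30.3 and 24.2 CPM in ExDSS. NC 1 alone stood above the rest, and NC 2 was below both PC libraries (ratio to the PC mean 0.628). Without NC 1 the fitted log2 fold change of PC against NC turned from -1.31 to 0.68.

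The chromosome 5 members were measured at lower counts. Gbp4 was at 42.8 and 2.48 CPM in the NC pair, 1.31 and 1.10 CPM in PC, 1.22 and 1.49 CPM in Ex, and 5.62 and 28.0 CPM in ExDSS. NC 2, at 26 counts, was 2.06-fold above the PC mean, so most of the NC mean (22.6 ± 28.5 CPM) came from NC 1, and the log2 fold change of PC against NC went from -4.22 to -1.02 without NC 1. Gbp6, studied with Gbp7 in defence against intracellular bacteria, was at 45.6 and 13.6 CPM in the NC pair, 1.53 and 1.73 CPM in PC, 1.63 and 0 CPM in Ex, and 10.01 and 11.4 CPM in ExDSS. It did not overlap between NC or ExDSS and PC, but 77.8% of the 50-base windows of its transcript end occurred in another gene's transcripts, mainly Gm43302 and Gbp10, so its counts may be shared with them. Gbp9 had 89 counts in NC 1 and 0 in NC 2 (5.90 and 0 CPM), 2.04 and 1.18 CPM in PC, 2.25 and 1.49 CPM in Ex, and 6.58 and 4.86 CPM in ExDSS. The NC libraries stood on either side of PC, while both ExDSS libraries were above it, 3.02- and 4.10-fold over the PC mean.

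**Figure D2:**
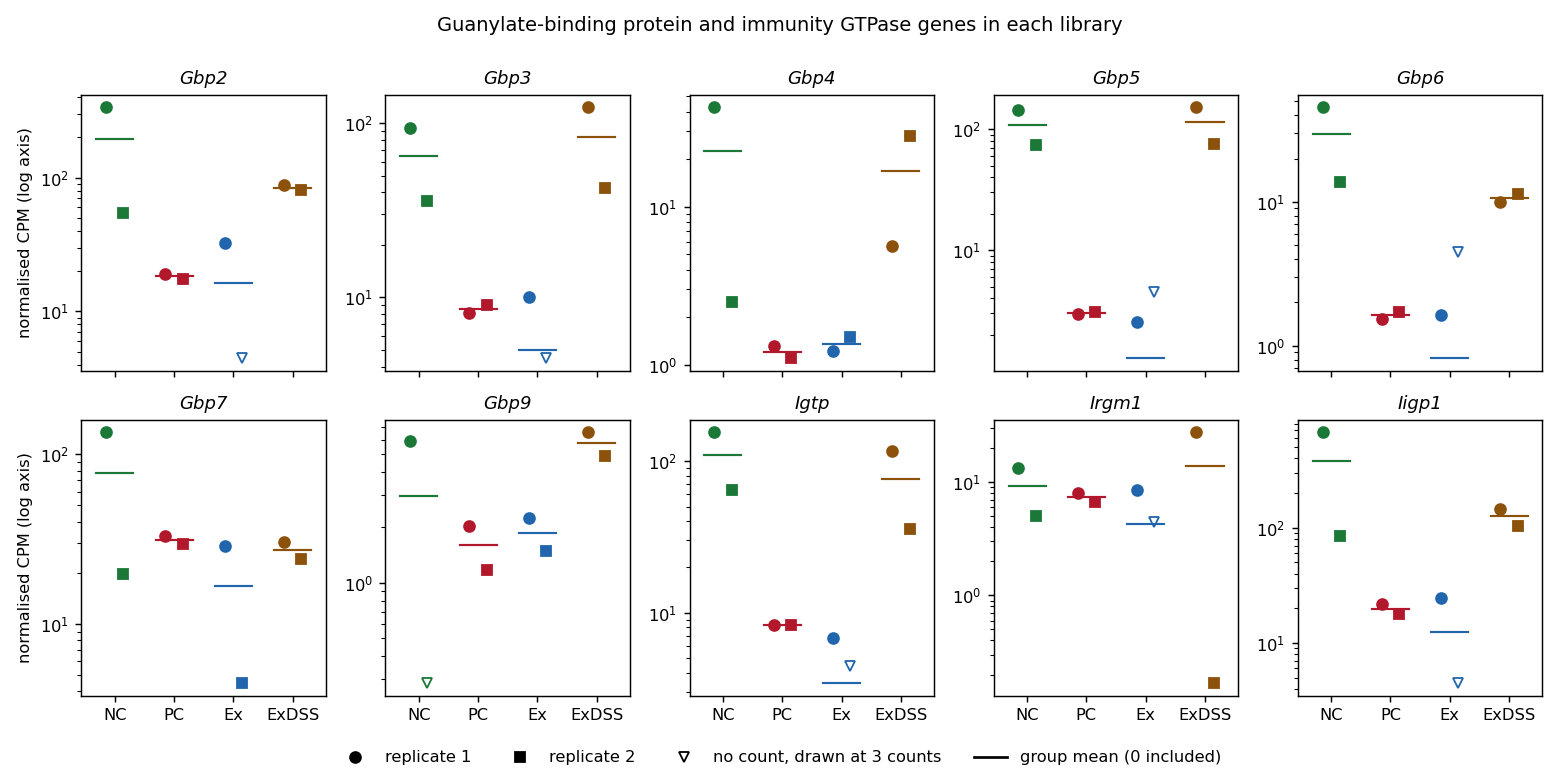
Normalised CPM (log axis) of the 10 members in each library, by group as labelled; circles and squares are replicates 1 and 2, lines are group means, and open triangles mark libraries with no count, drawn at the level of 3 counts. Gbp5 lies at 73.6 to 152 CPM in NC and ExDSS and near 3 CPM in PC, while Gbp7 differs from PC mainly in NC 1 and Irgm1 falls to 0.168 CPM in ExDSS 2.

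Iigp1, an effector that destroys parasite vacuoles, reached the highest level of any member in a library: 677 CPM (10211 counts) in NC 1. NC 2 held 84.2 CPM, PC 1 and PC 2 held 21.9 and 17.9 CPM, Ex 1 and Ex 2 held 24.7 and 0 CPM, and ExDSS 1 and ExDSS 2 held 147 and 104 CPM. Both NC and both ExDSS libraries were above PC, with ratios to the PC mean from 4.24 to 34.0.

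Igtp, a regulatory member, was at 155 and 64.0 CPM in the NC pair, 8.29 and 8.32 CPM in PC, 6.84 and 0 CPM in Ex, and 117 and 35.7 CPM in ExDSS. Both NC and both ExDSS libraries lay above PC and Ex, while NC and ExDSS overlapped with each other. The NC mean of 109 ± 64.2 CPM and the ExDSS mean of 76.2 ± 57.3 CPM were 13.2 and 9.18 times the PC mean.

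Irgm1, also a regulatory member, stood apart from the others. It was at 13.5 and 5.05 CPM in the NC pair, 8.07 and 6.75 CPM in PC, 8.58 and 0 CPM in Ex, and 27.7 and 0.168 CPM in ExDSS. The ExDSS libraries, with 202 and 2 counts, were the highest and the lowest of the 7 deep ones, and neither NC nor ExDSS separated from PC. The fitted log2 fold change of ExDSS against PC changed from 0.91 to -5.385 when ExDSS 1 was left out, and was also below 0 with limma-voom (-1.70) and with the replicate block (-1.17). Igtp had 0.798 to 1.23 counts per count of Irgm1 in PC 1, PC 2 and Ex 1, 11.5 and 12.7 in NC 1 and NC 2, and 4.21 and 213 in ExDSS 1 and ExDSS 2.

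Across the 10 members, the ratio of the NC mean to the PC mean ran from 1.25 (Irgm1) to 36.1 (Gbp5), with a median of 11.9, and that of the ExDSS mean to the PC mean from 0.875 (Gbp7) to 37.7 (Gbp5), with a median of 6.44. Ex 1, the deep exosome library without DSS, was close to PC for all 10 members, with ratios from 0.824 (Igtp) to 1.77 (Gbp2). In Ex 2, 7 members had no count, and the other 3 (Gbp4, Gbp7 and Gbp9) had 1 to 3 counts. The level in NC 1 was above that in NC 2 for every member, by 1.96-fold for Gbp5 to 17.3-fold for Gbp4 where NC 2 had a count. In bulk tissue, fewer cells of a type and less RNA per cell cannot be told apart.

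Gbp2, Gbp3, Gbp4, Gbp5, Gbp6, Igtp and Iigp1, 7 of 10 members, had all 4 NC and ExDSS libraries above all 4 PC and Ex libraries, as had 8.48% of the 14567 genes tested. In the near-empty Ex 2 low levels cannot be told from 0, for members as for all genes. For Gbp4 the level in NC 2 (2.48 CPM) was under the 4.47 CPM that a count of 0 allows in Ex 2, so these libraries are not resolved. Leaving out each library in turn gave 7 or 8 members, and scaling by RLE or upper-quartile factors gave 6. The count of members with both PC libraries below both NC libraries was also 7 (23.6% of all genes), and 8 had both ExDSS libraries above both PC libraries (18.9%). Since the choice of members used these values, nothing is read from the counts.

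All 10 members passed the filter on low counts, and edgeR's fit across all genes gave their fold changes. The median log2 fold change of the members was -3.57 for PC against NC, with all 10 below 0, against 0.10 for all genes, and -1.80 without NC 1, when Gbp7 (0.68), Gbp9 (6.94) and Irgm1 (0.56) were above 0. Gbp9 was also above 0 with limma-voom (1.78) and Irgm1 with the replicate block (0.22). It was 2.68 for ExDSS against PC, with 9 of 10 above 0, against -0.51 for all genes. For Ex against NC it was -3.80, with all 10 below 0, and for ExDSS against Ex 3.28, with all 10 above 0, against -0.27 and -0.29 for all genes. These 4 comparisons share groups with each other, so their values are not independent. The values against Ex used both Ex libraries, and the near-empty Ex 2 moved them. The median of ExDSS against Ex, 3.28 with both, was 2.56 without Ex 2 and 11.46 without Ex 1. In each of the 4 comparisons, 0% of genes were called at an adjusted p under 0.05, members included, with edgeR's quasi-likelihood fit and the Benjamini-Hochberg correction. At an unadjusted p under 0.05 there were 363, 2763, 774 and 2881 genes, and DESeq2 called 83, 1488, 337 and 2005 genes. In the interaction, which asks whether the difference made by DSS was the same with and without exosomes, the median of the members was 7.13 (all genes -0.58), and 0.288% of all genes were called, 0.261% higher and 0.0275% lower. Gbp5, called higher, was the only member among them, and since the rule used these levels, its call is not a test.

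**Figure D3:**
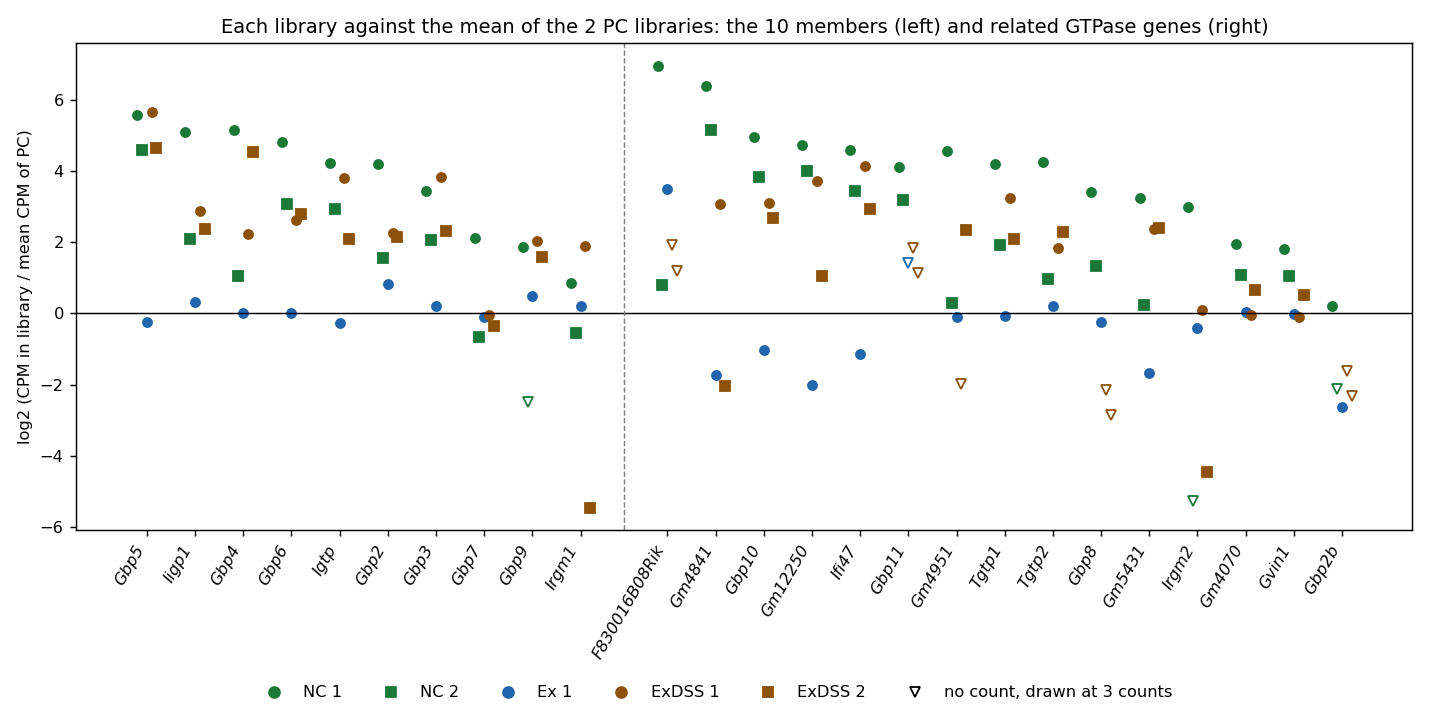
Log2 ratio of each of 5 deep libraries to the mean of the PC libraries, for the 10 members (left of the dashed line) and 15 related GTPase genes (right); open triangles mark a library with no count, drawn at 3 counts. Ex 1 lies near 0 for all members, and NC and ExDSS libraries lie above 0 for most members but not for Gbp7, Gbp9 and Irgm1.

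The make-up of the guanylate-binding protein counts within a library does not depend on scaling between libraries. Gbp7 held 48.5% of the counts of the 7 genes in PC 1 (exact Clopper-Pearson 95% interval 45.2 to 51.7%), 46.6% in PC 2 and 36.5% in Ex 1. Its share was 16.8% in NC 1 (16.1 to 17.5%), 9.81% in NC 2, 7.29% in ExDSS 1 and 9.07% in ExDSS 2. Gbp5 ran the other way, with 4.39% in PC 1 (3.17 to 5.92%), 4.85% in PC 2 and 3.24% in Ex 1, against 18.01% in NC 1 (17.3 to 18.7%), 37.0% in NC 2, 36.6% in ExDSS 1 and 28.2% in ExDSS 2. The shares of both genes thus separated NC and ExDSS from PC and Ex 1 without overlap, and the intervals, which cover counting error only, did not meet. The choice of members used the levels of these same genes, so the separation is a description and carries no test. Gbp5 had 0.0907 and 0.104 counts per count of Gbp7 in PC 1 and PC 2 and 0.0887 in Ex 1, against 1.07, 3.766, 5.03 and 3.11 in NC 1, NC 2, ExDSS 1 and ExDSS 2. Gbp2 held between 20.98% and 41.9% in these 7 libraries with no such order: its lowest share was in ExDSS 1 and its highest in NC 1.

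**Figure D4:**
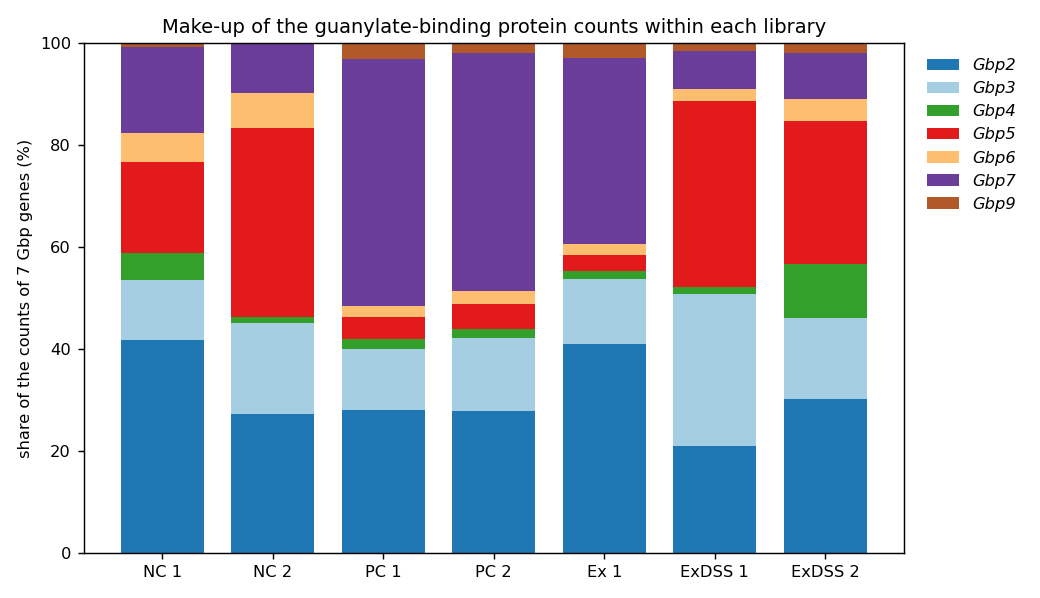
Share of the summed counts of 7 Gbp genes (percent, bars to 100) held by each gene in 7 libraries; Ex 2, with 5 such counts, is left out. Gbp7 (purple) holds 36.5 to 48.5% in PC and Ex 1 and 7.29 to 16.8% in NC and ExDSS, and Gbp5 (red) the reverse, 3.24 to 4.85% against 18.01 to 37.0%.

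Members varied together to different degrees. Over the 8 libraries, which share depth differences and the scarcity of counts in Ex 2, the correlation of log2 CPM between pairs of members had a median of 0.70 over 45 pairs, from -0.04 to 0.99. Against the mean profile of the other 9, Iigp1 (r = 0.98), Gbp2 and Gbp3 (0.96 each) and Igtp (0.95) were closest, and Irgm1 (0.55) and Gbp9 (0.30) farthest. Outside the members, the genes closest to their mean profile among 10390 genes with a mean of at least 5 CPM were Tgtp1 and Tgtp2 (r = 0.99 each), Bcl2a1a, Tifa, F5, Parp14, Ccr1, Apobec3, Mnda and Adgrl4 (0.97 to 0.98). The median r of all those genes was 0.34, and 159 exceeded 0.9. Tgtp1 and Tgtp2 end in identical sequence (100% of windows shared), so their counts are not independent of each other.

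Related GTPase genes outside the 10 were mostly lower in PC than in NC and split in ExDSS. Of 18 such genes 14 were tested: 13 had a negative log2 fold change for PC against NC (median -3.43), and 10 had a positive one for ExDSS against PC (median 1.70). Ifi47, a membrane-bound GTPase, was at 277 and 124 CPM in the NC pair, 14.2 and 8.55 CPM in PC, 5.21 and 1.49 CPM in Ex, and 201 and 87.0 CPM in ExDSS, with an interaction of 9.41 (SE 2.05, edgeR adjusted p = 0.0513). That value did not pass, and over 18 alternatives its adjusted p ran from 6.39e-08 to 0.583. Gm12250 (Irgb10), which helps to break bacterial membranes, was at 32.8 and 19.8 CPM in the NC pair, 1.381 and 1.10 CPM in PC, and 16.5 and 2.60 CPM in ExDSS (interaction 9.60, SE 3.21, edgeR adjusted p = 0.165). Tgtp1 was at 71.3 and 14.6 CPM in the NC pair, 4.51 and 3.22 CPM in PC, and 36.8 and 16.6 CPM in ExDSS (7.04, SE 2.54, edgeR adjusted p = 0.188). None of the 14 was called by edgeR in the interaction, with 6 at an unadjusted p under 0.05 (2741 of all 14567 genes). DESeq2 called 6 (1616 of all genes) and limma-voom 1 (327).

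Several relatives were missing from libraries in which their neighbours were abundant. Irgm2, which lies next to Igtp and has the same promoter elements, had 1319 counts in NC 1 and 0 in NC 2, where Igtp had 671, and 86 and 6 counts in ExDSS, where Igtp had 851 and 426. Per count of Igtp, Irgm2 had 0.565 in NC 1, 0.953 to 1.68 in PC, 1.21 in Ex 1, and 0.101 and 0.0141 in ExDSS. Gbp8, in the chromosome 5 cluster, had 292 and 48 counts in NC, 24 and 24 in PC and none in ExDSS, so that NC was at least 36.1-fold above ExDSS (mean over the floor of 3 counts per library), and at least 13.8-fold with NC 2 alone. NC 2, ExDSS 1 and ExDSS 2 are the deep libraries with the fewest genes detected, as given above. The part of this in the gaps was not tested.

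Of the 20 genes flanking the member clusters, Psme2b, a copy near Irgm1 of the proteasome activator gene Psme2, with which it may share reads, was the only one with all NC and ExDSS libraries above all PC and Ex libraries (180.3 to 287.8 against 165.1 to 179.1 CPM). Smim3, beside Iigp1, was at 32.9 and 30.2 CPM in ExDSS against 8.29 and 7.61 CPM in PC, with NC at 17.9 and 6.96 CPM. Around the chromosome 3 cluster, Pdlim5 had 21.6 and 57.7 CPM in the NC pair against 24.8 and 30.7 CPM in the PC pair. Gtf2b, a general transcription factor, was at 23.5 and 6.48 CPM in the NC pair, 36.9 and 35.4 CPM in PC and 0 and 0.59 CPM in ExDSS. Gnb2l1, a ribosomal scaffold gene near Irgm1, was at 1361 and 1411 CPM in the NC pair, 1141 and 1462 CPM in PC and 1186 and 1088 CPM in ExDSS. None of the 20 flanking genes, the nearest counted pair on each side of 5 clusters, had an adjusted p under 0.05 in edgeR's test of PC against NC or of the interaction.

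Ligand and receptor genes of the pathway mostly had fold changes below 0 for PC against NC, as the members had. For ExDSS against PC they were split much as all genes tested were. Ifng, which encodes interferon-gamma, had 167 and 41 counts in NC (11.1 and 3.91 CPM) and 0 in each of the other 6 libraries. The NC mean was therefore at least 33.03-fold above PC and at least 22.6-fold above ExDSS, whose mean floors were 0.227 and 0.331 CPM. With NC 2 alone the bounds were 17.2- and 11.8-fold, while the level of NC 2 would not have been detectable in Ex 2, whose floor was 4.47 CPM. In ExDSS, Ifng was thus below detection, a bound of 0.411 and 0.251 CPM in its 2 libraries that covers counting error only. ExDSS 1 and ExDSS 2 had the fewest genes with a count of the deep libraries (9825 and 11874), and the part of this in the Ifng values was not tested. For the members, the NC mean was between 0.516 (Gbp9) and 3.04 (Iigp1) times the ExDSS mean. Ifngr1, a receptor chain, was at 175.5 and 173 CPM in the NC pair, 95.7 and 110 CPM in PC, 172 CPM in Ex 1, and 67.6 and 179 CPM in ExDSS, with both PC libraries below NC and within the range of ExDSS (interaction 1.25, SE 2.01, edgeR adjusted p = 0.805). Of 10 tested genes of this list, 8 were below 0 for PC against NC (median -0.53) and 6 were below 0 for ExDSS against PC (median -0.91). Over all 14567 genes tested, 6798 and 8636 were below 0. Ifnb1, Ifnl2, Ifnl3 and Il27 had no count in any library.

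Signalling genes described here did not pass the test of the interaction. Irf1 was at 368 and 69.0 CPM in the NC pair, 101 and 104 CPM in PC, 114 CPM in Ex 1 and 82.6 and 151 CPM in ExDSS, with NC 2 and ExDSS 1 below PC (1.87, SE 1.84, edgeR adjusted p = 0.638). Socs1, with 149 and 1 counts in NC, 22 and 23 in PC and 4 and 0 in ExDSS, gave -0.77 (SE 3.25, edgeR adjusted p = 0.943). Irf7 and Usp18, which respond to type I interferon, had the smallest p of the list, with 6.77 (SE 1.97, edgeR adjusted p = 0.144) and 9.39 (SE 2.85, edgeR adjusted p = 0.149). Of 16 signalling genes 12 were below 0 for PC against NC (median -0.77) and 9 above 0 for ExDSS against PC (median 0.10). None was called in the interaction by edgeR (2 at an unadjusted p under 0.05, as were 2741 of all 14567 genes). DESeq2 called 2 (1616 of all genes) and limma-voom 1 (327).

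**Figure D5:**
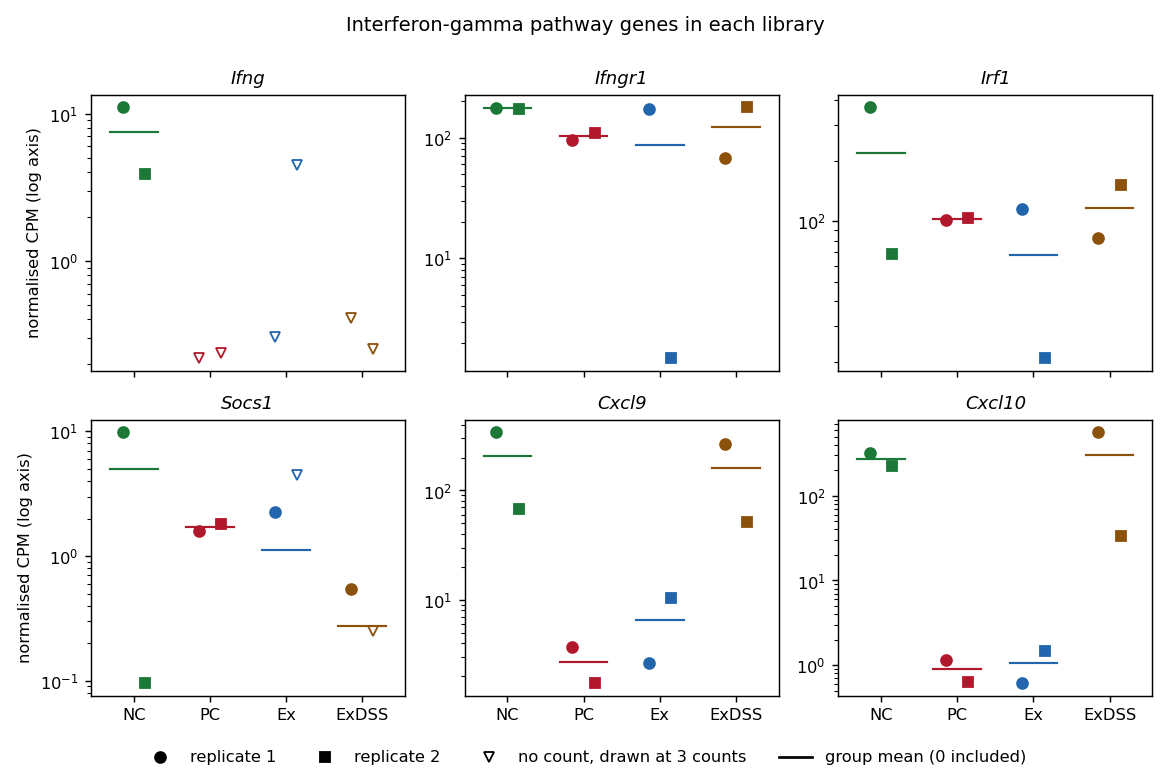
Normalised CPM (log axis) of 6 interferon-gamma pathway genes in each library; symbols as in the plot of the members, with open triangles for libraries with no count. Ifng has counts in NC only, Cxcl10 and Cxcl9 are higher in NC and ExDSS than in PC and Ex, and Ifngr1, Irf1 and Socs1 show no such order.

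Among other targets of interferon-gamma, a list chosen with earlier results of these data known, chemokine and enzyme genes were called higher in the interaction. These calls are therefore a description and not an independent test. Of 17 tested genes DESeq2 called 12 in either direction (1616 of all genes) and limma-voom 7 (327). By edgeR 5 were called higher (0.261% of all genes were). They were the T cell attracting chemokines Cxcl9 (10.95, SE 2.28, edgeR adjusted p = 0.0396) and Cxcl10 (16.68, SE 2.66, edgeR adjusted p = 0.00919), the tryptophan-degrading enzyme gene Ido1 (15.44, SE 2.80, edgeR adjusted p = 0.0151), Serpina3g and Acod1, the itaconate enzyme gene, listed in the table as Irg1. Cxcl9 was at 342 and 67.1 CPM in the NC pair, 3.71 and 1.73 CPM in PC, 2.66 and 10.4 CPM in Ex, and 268 and 51.5 CPM in ExDSS. Cxcl10 was at 317 and 224 CPM in the NC pair, 1.16 and 0.628 CPM in PC, 0.613 and 1.49 CPM in Ex, and 564 and 33.6 CPM in ExDSS. Ido1 was at 25.5 and 134 CPM, 1.02 and 0.471 CPM, 0.306 and 0 CPM, and 216 and 12.3 CPM in the same order. For all 3 genes most of the ExDSS mean came from ExDSS 1. Without NC 1, NC 2, PC 1, PC 2 or Ex 2 none of the 5 calls was made, while 1 gene was called without ExDSS 1, 1 with total counts as scaling, 1 with the filter at 5 CPM, 3 with upper-quartile factors and 10 without Ex 1. The median of the list was -3.76 for PC against NC (16 of 17 below 0) and 4.33 for ExDSS against PC (13 of 17 above 0).

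Partners of the GTPases in membrane targeting and inflammasome activation had medians nearer to those of all genes, -0.63 for PC against NC (14 of 19 below 0) and 0.70 for ExDSS against PC (11 of 19 above 0). None was called in the interaction by edgeR (3 at an unadjusted p under 0.05, as were 2741 of all 14567 genes). DESeq2 called 2 (1616 of all genes), limma-voom 1 (327), the replicate block 1 (161) and the fit with no filter 1 (350). The partners with the smallest p were Cybb, the catalytic subunit of the phagocyte oxidase (8.35, SE 2.02, edgeR adjusted p = 0.0847), Gsdmd, the pore protein gasdermin D (5.28, SE 1.95, edgeR adjusted p = 0.192), and Gabarapl1, an autophagy protein (4.17, SE 1.83, edgeR adjusted p = 0.236). Cybb was at 104 and 199 CPM in the NC pair, 15.6 and 16.7 CPM in PC and 366 and 229 CPM in ExDSS.

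Summed markers of immune cells were higher in NC and ExDSS than in PC and Ex, as the members' sum was. The members' sum was 9.896 times PC in NC and 5.51 times in ExDSS, and that of macrophage markers 5.37 and 8.53 times. For the members the higher NC value came from NC 1, since NC 2 (352 CPM) was below ExDSS 1 and ExDSS 2 (707 and 407 CPM). No order of NC and ExDSS is read from these sums. The 10 macrophage markers summed to 1023 and 2591 CPM in the NC pair, 283 and 391 CPM in PC, 353 CPM in Ex 1 and 2422 and 3325 CPM in ExDSS, and none was at 0 in the 7 deep libraries. C1qa and C1qb made up most of the sums in NC and ExDSS. Of the 10 macrophage markers, 9 had a log2 fold change below 0 for PC against NC, and 8 were above 0 for ExDSS against PC. Some libraries went the other way: Lyz2 (6.67 CPM) and Mrc1 (3.15 CPM) in NC 2 were below both PC libraries, as was Cx3cr1 (4.5 CPM) in ExDSS 1. Neutrophil markers, given above, were near 0 in PC and Ex. Of 6 tested, 4 (S100a8, S100a9, Retnlg and Mmp8) were called higher in the interaction by edgeR, as were 0.261% of all genes. This list too was chosen with earlier results known, so its calls are a description. The 12 T and NK cell markers summed to 44.7 and 64.9 CPM in the NC pair, 12.2 and 13.9 CPM in PC, 10.1 CPM in Ex 1, and 68.6 and 59.0 CPM in ExDSS. Of these 12, 7 were at 0 in ExDSS 1 (Cd3e, Cd4 and Cd8a among them), 5 in NC 2 (Cd3e and Cd8a among them), 4 in ExDSS 2 (Cd8a among them), 1 in NC 1, 3 in Ex 1 and none in PC. Nkg7 (29.9 CPM) and Gzma (24.7 CPM) made up most of the sum in ExDSS 1. The 6 endothelial markers summed to 82.6 to 148 CPM in NC and ExDSS and 46.5 to 58.2 CPM in PC and Ex 1, and the 6 smooth muscle markers to 1717 to 2887 CPM and 3157 to 4093 CPM. Single markers did not all follow the sums. For ExDSS against PC, 4 endothelial markers had a log2 fold change above 0 and 2 below, Kdr (0 and 0 against 11.8 and 11.5 CPM) and Cdh5 (0 and 0.586 against 3.6 and 2.6 CPM). Of the smooth muscle markers 4 were below 0 and 2 above, with Cnn1 at 969 and 1006 CPM in ExDSS against 715 and 726 CPM in PC. The part of cell make-up in the members' levels was not tested. Acinar markers were at 3.18 CPM in NC 1 and 85889 CPM in NC 2, where the members' sum was 1648 and 352 CPM, and at 222455 CPM in ExDSS 1 and 1.42 CPM in ExDSS 2, where it was 707 and 407 CPM. Their part in the members' levels was not tested.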

How the data were processed

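The deposited table holds raw whole-number counts per gene, made by the authors from QuantSeq 3' mRNA libraries of total RNA, per the labels' protocols. Bowtie2, bedtools and edgeR and the build mm9 are named in the submitters' processing notes without versions; the use of strand in counting is not stated in these sources. For 22113 table genes a GENCODE gene of the same name lay on the same chromosome, and 99.69% of them overlapped it in GRCm38, so coordinates are given as GRCm38. Names were dates in 27 lines (0.135% of counts), which were kept. The members and all gene lists were chosen with earlier results of these data known.

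Counts were analysed with edgeR 4.0.16 and limma 3.58.1 in R 4.3.3: TMM scaling, filterByExpr (at least 10 counts, scaled to library size, in 2 libraries and 15 in all), and the robust quasi-likelihood F test with 1 coefficient per group over 8 libraries (4 residual degrees of freedom). The code was run on simulated counts of smaller spread than these libraries, whose common dispersion was 1.173. That run therefore does not show the power of the test here. Calls are Benjamini-Hochberg adjusted p-values under 0.05 over 14567 genes. CPM are TMM-normalised and compared between libraries, not between genes. The SE of a log2 fold change is its size divided by the square root of F. Alternatives were other scalings and filters, DESeq2 1.42.0, limma-voom, a replicate block and each library left out. Named were all members, Ifng, Ifngr1, Irf1, Socs1 and Cxcl9 (a further gene of this rule is not reported here), the 3 smallest interaction p per other list (mean of at least 1 CPM), the 10 most similar profiles (log2 CPM, prior count 2) and flanking genes, of which examples are printed. Gaps such as Gbp8 and Irgm2 were picked after their values were seen. Depth per library is given in the results, and no interval or floor covers more than counting error, since PCR copies cannot be told from molecules.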

Additional observations from a re-analysis of the deposited data

Results flagged for a closer look

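For 7 members the libraries moved in opposite directions: both PC libraries were below both NC libraries, while both ExDSS libraries were above both Ex libraries. The fitted interaction on the log2 scale was 5.71 for Gbp2, 6.79 for Gbp3, 7.88 for Gbp4, 11.23 for Gbp5, 7.48 for Gbp6, 7.96 for Igtp and 7.51 for Iigp1. Over all genes tested, 10.4% had this pattern. Since these members were chosen on the same levels, the fitted difference is not used as a test for them; edgeR's fit called Gbp5 alone of the 7. The members' median was 7.13, and 14.79 without Ex 1.

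In edgeR's interaction test, 9 other listed genes passed. Of interferon-gamma targets these were Cxcl9 (10.95), Cxcl10 (16.68), Ido1 (15.44), Irg1 (17.91) and Serpina3g (12.46). Of neutrophil markers they were S100a8 (20.75), S100a9 (19.07), Retnlg (12.68) and Mmp8 (19.82). All 9 were higher in NC and ExDSS than in PC and Ex, and the groups are as labelled. Their lists were chosen with earlier results of these data known, so the 9 calls are a description and not an independent test.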

How the results depend on the processing

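The direction of the members' median fold change was the same under all 18 alternatives in each of the 5 comparisons. With each library left out in turn it ranged from -4.20 to -1.80 for PC against NC, 2.21 to 2.78 for ExDSS against PC, -11.78 to -2.19 for Ex against NC, 2.56 to 11.46 for ExDSS against Ex and 5.11 to 14.79 for the interaction. The extremes over 10 were reached without Ex 1, when the near-empty Ex 2 stood for its group. The number of members with all NC and ExDSS libraries above the rest ranged from 7 to 8, and was 6 with RLE or upper-quartile factors.

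The number of genes called over all genes depended on the tool. For PC against NC edgeR called 0, against 45 with no filter on low counts, 83 with DESeq2 and 2 with limma-voom. For ExDSS against PC it called 0, against 132 with no filter, 1488 with DESeq2, 1160 with limma-voom and 41 with the replicate block. For Ex against NC it called 0, against 55 with no filter and 337 with DESeq2. For ExDSS against Ex it called 0, against 223 with no filter, 2005 with DESeq2, 505 with limma-voom and 28 with the replicate block. For the interaction it called 42, against 67 with RLE factors, 6 with total counts, 350 with no filter, 18 with the filter at 5 CPM, 1616 with DESeq2, 327 with limma-voom and 161 with the replicate block. With each library left out the calls ranged from 0 to 4, 0 to 6, 0 to 1596, 0 to 1883 and 0 to 1663 in that order. An alternative added after seeing the data left out NC 2, Ex 2 and ExDSS 1 together, so that the PC pair alone gave the spread, and called 3910, 10719, 3603, 9839 and 9646 genes. The cause of these differences was not tested. Same-numbered libraries showed no shared deviation from their group means (correlations from -0.15 to 0.05). With groups of 2 and the near-empty Ex 2 among them, this cannot settle whether the replicate numbers mark pairs.

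Interactions changed sign for genes that had not passed. With each library left out in turn, Socs1 ranged from -6.26 to 6.06 (0.18 without NC 2, 0.17 without ExDSS 2), Ifnlr1 from -9.26 to 1.33, Ifnar1 from -5.18 to 4.52, Tagln from -6.21 to 2.50 and Acta2 from -5.23 to 1.47, each highest without Ex 1. Cd4 ranged from -3.48 without ExDSS 2 to 12.5, and Tek from -4.17 without ExDSS 2 to 10.73. With the 3 libraries left out, Gzma was -0.72, Amy2a5 -6.23, Cela3b -5.35 and Try4 -4.29. In Ex 2 levels under 4.47 CPM cannot be told from 0.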
